A study of Homo sapiens with 4 samples.

Results

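The loop hubs of HCT116 were the 30 anchors, of 18501 anchors in its filtered loops, that were joined to most partner anchors. H3K27ac HiChIP had been run on 4 untreated, established human colorectal cancer lines with 1 library each: HCT116 (colorectal carcinoma), LS513 (Dukes' type C carcinoma), SW480 (Dukes' type B adenocarcinoma) and SW620 (Dukes' type C adenocarcinoma). The assay ligates DNA segments that lie together in fixed nuclei and keeps those carrying acetylated lysine 27 of histone H3. An anchor is a segment that the authors used as a loop end, and a paired-end tag (PET) is 1 sequenced ligation between anchors. Anchors of HCT116 were ranked by the number of partners with 2 or more PETs, with ties set by summed PETs. The ranking used the HCT116 values, so these values are a description, and with 1 library per line no difference below has a replicate check.

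H3K27 acetylation marks active promoters and enhancers. An active promoter can be joined to several enhancers, and clustered enhancers are joined to one another, so that a segment with many partners is called a hub. Such clusters in colorectal cancer cells are known around growth, WNT and epithelial genes. No hg19 annotation was used here, and no gene was matched to an anchor by coordinates. The gene names below come from general knowledge of hg19, as background, which departs from the planned rule of taking names from the files or reference tables only. A name does not say that a start site fell inside an anchor. Which genes neighbour each other was read from the RefSeq gene table of GRCh38.p14, from which no coordinate was taken.

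The second hub, on chromosome 19 from 13942612 to 13978602 (hg19), lies at the gene of the miR-23a, miR-27a and miR-24-2 cluster. It is shown by its products because the hub led in SW620 and stood second in LS513 too. The mature RNAs of the 3' arms, from RefSeq (GRCh38.p14, minus strand), have their seeds, bases 2 to 8, in capitals.
hsa-miR-23a-3p: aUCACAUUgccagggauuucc
hsa-miR-27a-3p: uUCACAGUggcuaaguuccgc
hsa-miR-24-3p: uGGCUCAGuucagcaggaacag
The 3 seeds differ from one another.

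Promoters are shown for ERRFI1, beside the hubs with the largest excess in HCT116, JUNB, at a hub close in HCT116 and LS513, and CLDN4, at a hub highest in SW480. These 3 promoters and the 3 motifs marked in them were chosen after a scan of 21 gene symbols, of which 19 had a promoter in the table, for 8 motifs. CLDN4 was picked because it had AP-1 matches. Each run holds the 250 bases before the annotated start (RefSeq, GRCh38.p14; ERRFI1 on the minus strand, JUNB and CLDN4 on the plus strand), 5′ to 3′ along the gene. Capitals mark matches to TGANTCA (the AP-1 motif), CCAAT or TATAAA on either strand.
ERRFI1: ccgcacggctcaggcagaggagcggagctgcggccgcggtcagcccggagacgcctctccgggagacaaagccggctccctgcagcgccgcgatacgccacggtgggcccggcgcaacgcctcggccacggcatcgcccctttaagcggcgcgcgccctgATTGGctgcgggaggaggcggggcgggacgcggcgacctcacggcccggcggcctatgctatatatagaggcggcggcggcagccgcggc
JUNB: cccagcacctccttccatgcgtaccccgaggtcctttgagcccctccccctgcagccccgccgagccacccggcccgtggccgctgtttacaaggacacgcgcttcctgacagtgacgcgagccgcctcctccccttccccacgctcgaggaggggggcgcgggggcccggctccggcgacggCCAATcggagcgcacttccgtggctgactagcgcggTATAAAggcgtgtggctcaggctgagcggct
CLDN4: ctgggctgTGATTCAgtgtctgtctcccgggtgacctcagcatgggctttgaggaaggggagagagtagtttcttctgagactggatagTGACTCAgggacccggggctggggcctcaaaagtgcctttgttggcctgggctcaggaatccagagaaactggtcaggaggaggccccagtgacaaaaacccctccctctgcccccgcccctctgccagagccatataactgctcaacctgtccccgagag
CLDN4 holds 2 matches to the AP-1 motif and was the only 1 of the 19 scanned promoters with any, against 6.57% of the 35116 promoters in the table in the same window. TATAAA was in 3 of the 19 (10.7% of all), JUNB among them, and CCAAT in 7 (32.0% of all), JUNB and ERRFI1 among them, in ERRFI1 on the other strand. Of the motifs not marked, GGGGCGGGG was in 9 of the 19 (15.1% of all), the serum response element in 1 (1.16%), and CTTTGAT (2.26%), TGACGTCA (1.65%) and CCGGAAGT (3.42%) in 0. A match is a description of letters and not a binding site, and nothing is read from these counts.

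Filtered loops, those whose anchor midpoints lie 5 kb to 2 Mb apart, held 81579 PETs for HCT116, 222113 for LS513, 13885 for SW480 and 152421 for SW620. A rate below is PETs per 1000000 filtered PETs of the library. A count of 0 allows a rate of up to 36.8 for HCT116, 13.5 for LS513, 216 for SW480 and 19.7 for SW620, taken as 3 counts. Intervals are exact conditional (Clopper-Pearson) 95% intervals of a ratio of rates. They cover counting error only and treat PETs, which carry no molecular identifiers, as independent. A hub was called higher in HCT116 where its rate was at least 2 times that of the line compared and the interval lay above 1, and lower where it was at most 0.5 times and the interval lay below 1.

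Hubs were rare. Of the 18501 anchors, 60.9% had at least 1 partner with 2 or more PETs, 161 had at least 10 and 15 had at least 15. The 30 hubs had 13 to 26 partners and 63 to 314 PETs each. Together their 769 loops held 3355 PETs, or 4.11% of the filtered PETs of HCT116. The anchors at ranks 28, 29 and 30 had 13 partners with 116, 101 and 74 PETs, and those at ranks 31, 32 and 33, just outside, had 13 partners with 63, 58 and 57 PETs. Hubs within 250 kb of one another were taken as 1 locus, which gave 23 loci.

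**Figure D1:**
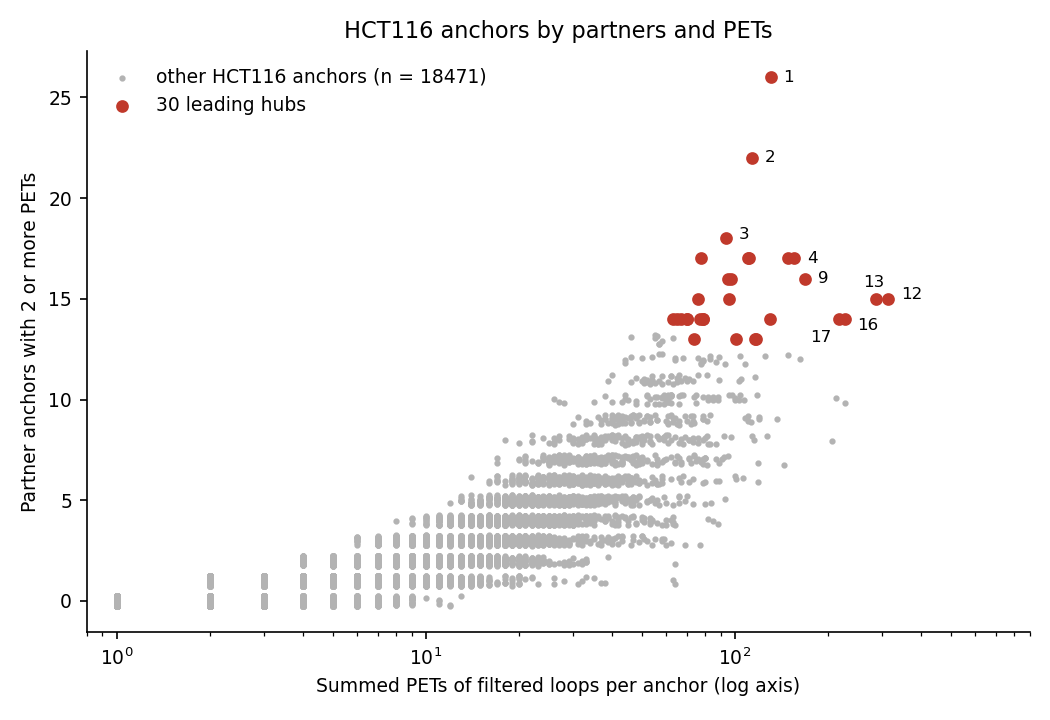
Each HCT116 anchor by its summed PETs in filtered loops (log axis) and its partner anchors with 2 or more PETs, with the 30 leading hubs in red and numbered by rank where named; other anchors are moved slightly up or down to show their density. Hubs 1 and 2 have 26 and 22 partners with 131 and 114 PETs, while hubs 12, 13, 16 and 17 have 14 or 15 partners with 217 to 314 PETs.

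The hubs were long anchors in anchor-dense parts of the genome. Their median length was 27.4 kb against 4.71 kb for all HCT116 anchors, and 21 of the 30 were 20 kb or longer, against 2.32% of all anchors. A median of 103 other anchors lay within reach of a hub, 5 kb to 2 Mb away, against 46 for all anchors. Chromosome 19 held 9 of the 30 hubs and 6.38% of all anchors, chromosome 9 held 5 and 4.22%, and chromosome 17 held 4 and 6.55%. Across the 18501 anchors, the number of partners had a Spearman correlation of 0.40 with length and 0.30 with the anchors in reach, as a description of points that share 1 library. The 408 anchors of 20 kb or more that were not hubs had a median of 5 partners and 0.995 PETs per kb. All 30 hubs, with those under 20 kb included, had 14.5 and 4.52. The ranking used partners and PETs, so this difference was set by the choice of hubs.

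Hubs differed in how their PETs were spread. The share of a hub's PETs in its strongest loop ran from 12.8% to 42.7%, with a median of 23.7%. Partners with 2 or more PETs made up 10.4% to 44.7% of the anchors in reach, with a median of 14.5%. The farthest such partner lay 148 kb to 1696 kb away. The shortest reach was that of hub 17 on chromosome 1, and the longest that of hub 8, at JUNB. The authors' deposited FDR was under 0.01 for 322 of the 769 hub loops, or 41.9%, and for 12.8% of all HCT116 loops.

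The first hub, on chromosome 19 from 1233559 to 1278515, lies at MIDN, which helps send nuclear proteins to the proteasome, and CIRBP, which encodes a cold-inducible RNA-binding protein. It had 26 partners and 131 PETs in HCT116, a rate of 1606, and 133 anchors in reach. Overlapping anchors had rates of 1756 in LS513, 72.0 in SW480 (1 PET) and 0 in SW620. HCT116 and LS513 were thus close (ratio 0.91, interval 0.74 to 1.12), and SW620 was lowest. SW620 had no anchor over the hub in any of its tables, while its nearest anchors lay 13.95 kb below and 3.14 kb above it. Its strongest HCT116 loop, of 17 PETs, reached 155 kb to 1092493 to 1108692, and LS513 held 23 PETs there.

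The miR-23a hub led or stood second in the partner rankings of HCT116, LS513 and SW620. It had 22 partners and 114 PETs for HCT116, with rates of 1397 in HCT116, 1247 for LS513, 1800.5 for SW480 (25 PETs) and 1102 for SW620. Neither LS513 (ratio 1.12, interval 0.89 to 1.40) nor SW620 (1.27, 0.99 to 1.62) nor SW480 (0.78, 0.50 to 1.25) was called different. The ratio to SW480 depended on the setting. It was 0.183 scaled by chromosome and 0.491 per kb of anchor, both called lower. With loops spanning 20 kb or more it was 3.81, called higher. The overlapping anchor had 37 partners in LS513, second there, and 29 in SW620, the first. In SW480, whose library had the fewest PETs, the 2 overlapping anchors ranked 1089 at best. They had no outside partner with 2 or more PETs. Loops joining these 2 anchors to each other count in the 25 PETs of SW480. In HCT116 such contacts lie within the hub anchor and are not loops. Their part in the ratio was not tested.

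A further 5 hubs of chromosome 19, and hub 21 described below, had no call against LS513 and were called higher than SW480. Hub 3, from 49114320 to 49145004, lies at RPL18, a ribosomal protein gene, SPHK2, a sphingosine kinase gene, and DBP, a circadian transcription factor gene. It had 18 partners and rates of 1152 for HCT116, 1058 for LS513, 0 for SW480 and 479 for SW620. Hub 23, at CA11 next to it, had 14 partners and was joined to hub 3 by 17 PETs. Its rate was 858 in HCT116 and 504 in LS513 (ratio 1.70, 1.24 to 2.31), and SW480 and SW620 had 0 PETs and no anchor there. Hub 6, from 2039013 to 2066522 at MKNK2, a kinase gene downstream of ERK, had rates of 1361, 1081, 216 and 1010 in HCT116, LS513, SW480 and SW620. Hub 8, from 12883500 to 12908534 at JUNB, an AP-1 factor gene, had 17 partners and rates of 956, 851, 216 and 715 in the same order. Hub 10, from 45904098 to 45913504 at PPP1R13L, which encodes an inhibitor of p53, and POLR1G, had 16 partners and rates of 1189, 1279, 72.0 and 781. Of these 5 hubs, hub 23 stood farthest from LS513, with an interval that left 1. Scaled by chromosome, none of the 5 was called against SW480.

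A pair of hubs 42.1 kb apart on chromosome 19 differed in their call against LS513. Hub 21, from 18471706 to 18504208 at PGPEP1 and GDF15, a stress-induced cytokine gene and p53 target, had rates of 944 for HCT116, 653 for LS513, 144 for SW480 and 558 for SW620. Hub 24, from 18526574 to 18533480 at SSBP4, had rates of 821, 329, 0 and 545. Hub 24 was called higher than LS513 (2.50, interval 1.77 to 3.53), and hub 21 was not (1.45, 1.08 to 1.92). The difference between these ratios was not tested. Both hubs were called higher than SW480, and scaled by chromosome neither was.

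Hub 4, on chromosome 17 from 70369214 to 70434362, lies at LINC00673, downstream of SOX9, a transcription factor gene of intestinal crypt cells. RefSeq lists no protein-coding gene between SOX9 and LINC00673. The hub had 17 partners, 44.7% of the 38 anchors in reach, which was the highest share among the hubs. Its rates were 1912 for HCT116, 1144 for LS513, 4105 for SW480 (57 PETs) and 0 for SW620. SW480 was the highest, with a ratio of HCT116 to it of 0.47 (0.34 to 0.64), called lower. SW480 had 4 anchors over the hub, with 2 outside partners of 2 or more PETs. Loops joining these 4 to each other count in its 57 PETs, whereas in HCT116 such contacts are not loops. Their part in the ratio was not tested. The call was lost with loops spanning 20 kb or more. With rates scaled to the anchors that overlap in all 4 libraries, the ratio to the highest other line was 1.505, so the direction turned. SW620 again had no anchor over the hub in any table and had anchors 4.81 kb below and 35.0 kb above it. Among its partners, the anchor at SOX9 itself, 70114109 to 70122332, held 19 PETs at 284 kb in HCT116 and 41 in LS513, with 0 in SW480 and SW620.

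Hub 5, on chromosome 17 from 79861865 to 79928607, lies at MAFG, a small Maf factor gene, and NOTUM, which encodes a secreted WNT inhibitor. It was the longest hub, at 66.7 kb. Its rates were 1826 for HCT116, 2039.5 for LS513, 1728 for SW480 and 2165 for SW620, and no interval of a ratio left 1. SW480 overlapped it with 13.4 kb of anchor, and per kb of anchor the ratio to SW480 was 0.212, called lower. Its strongest loop, of 51 PETs, led to hub 18, 79946860 to 79996995 at ASPSCR1 and the GTPase gene RAC3, and this loop had 173 PETs in LS513, 24 in SW480 and 0 in SW620. Hub 18 had rates of 1594, 1796, 1945 and 0, and SW620 had no anchor over it in any table. Hub 20, on chromosome 17 from 7135920 to 7147811 at DVL2, a transducer of WNT signals, and GABARAP, an autophagy gene, went the other way. Its rates were 968 for HCT116, 1279 for LS513, 720 for SW480 and 1883 for SW620, and the ratio to SW620 was 0.51 (0.40 to 0.66), just short of a call, and 0.453 with FDR under 0.01, called lower.

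The hub beside KRT80, an epithelial keratin gene, was hub 9, on chromosome 12 from 52530425 to 52561883. It had 16 partners and 169 PETs, of which 46 joined it to 52574732 to 52619093, 50.8 kb away, and 15 joined it to 53261514 to 53275044, 722 kb away. Its rates were 2072 for HCT116, 1315 for LS513, 2881 for SW480 and 0 for SW620, where no table had an anchor over it. Hub 27, on chromosome 7 from 73234937 to 73258355, lies at CLDN4, a tight junction gene whose neighbour is CLDN3. Its rates were 1434 for HCT116, 1859 for LS513, 2953 for SW480 (41 PETs) and 754 for SW620, and it was called lower than SW480 (0.49, 0.34 to 0.71). That call was lost in 4 of 7 settings, and against the highest other line the ratio was 0.604 scaled by chromosome and 0.762 scaled to the anchors that overlap in all 4 libraries. Hub 25, on chromosome 1 from 155086524 to 155114183 at EFNA1, a ligand gene of Eph receptors, had rates of 797, 1085, 216 and 354. Hub 22, on chromosome 16 from 3052867 to 3079173 at CLDN6 and TNFRSF12A, the TWEAK receptor gene, had rates of 858, 594, 288 and 289. Hubs 27 and 25 were thus highest in another line, and hub 22 in HCT116, without a call against LS513 (1.44, 1.06 to 1.94).

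On chromosome 9 the hubs formed 4 loci. Hub 13, from 132218057 to 132271368 at the long noncoding RNA gene LINC00963, had 286 PETs, the second highest sum in HCT116. Its rates were 3506 for HCT116, 2323 for LS513, 3673 for SW480 and 1030 for SW620. Its strongest loops, of 80 and 67 PETs, led to 132306471 to 132348313 and 132352765 to 132377639. SW620 had 0 PETs in both and had no anchor over either partner in any table. SW480 had 27 and 21, counts that share PETs because an SW480 anchor of 42.7 kb overlaps both partners. Hub 28, from 131926906 to 131949432 at IER5L, was joined to hub 13 over 307 kb by 38 PETs for HCT116, 87 for LS513, 2 for SW480 and 35 for SW620, and its median span, the longest of the hubs, was that of this loop.

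Hub 11, from 140106387 to 140138647 on chromosome 9 at the tubulin gene TUBB4B, was the only one of the 30 called lower than LS513. Its rates were 1165 for HCT116, 2598 for LS513, 0 for SW480 and 676 for SW620 (ratio to LS513 0.45, 0.36 to 0.56). The call was lost with loops of 2 or more PETs (0.517) and when scaled by chromosome (0.614). Its strongest loop, of 27 PETs in HCT116 and 230 in LS513, led to the neighbouring anchor 31.9 kb away. Hubs 15 and 26, from 130689310 to 130701997 at DPM2 and from 130676310 to 130686030 at ST6GALNAC4, genes of protein glycosylation, were close to LS513 (1.12 and 0.97) and had no anchor in SW480.

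The remaining hubs were 7, 14, 19, 29 and 30. Hub 14, on chromosome 8 from 101961484 to 101967128 at YWHAZ, a 14-3-3 protein gene, was the shortest at 5.64 kb and had 15 partners, or 17.01 PETs per kb. Its rates were 1177, 1508, 0 and 262 in HCT116, LS513, SW480 and SW620. Hub 7, on chromosome 11 from 64600080 to 64627416 at CDC42BPG and the endocytic recycling gene EHD1, had 17 partners and rates of 1348, 1274, 648 and 453. Hub 29, from 62304241 to 62336126 at AHNAK, had rates of 1238, 864, 0 and 479, and hub 30, from 62431117 to 62441523 at UQCC3, a gene of complex III assembly, had rates of 907, 954, 0 and 1194. Hub 19, on chromosome 16 from 69426446 to 69448576 between the telomere gene TERF2 and CYB5B, had rates of 968, 477, 648 and 446 and was called higher than LS513 (2.03, 1.497 to 2.74) and SW620 (2.17, 1.55 to 3.05). It was not called against SW480 (1.49, 0.75 to 3.39), and scaled by chromosome that ratio turned to 0.570. With loops spanning 20 kb or more the ratio to LS513 was 1.92, and per kb of anchor that to SW620 was 1.91, so both calls were lost.

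**Figure D2:**
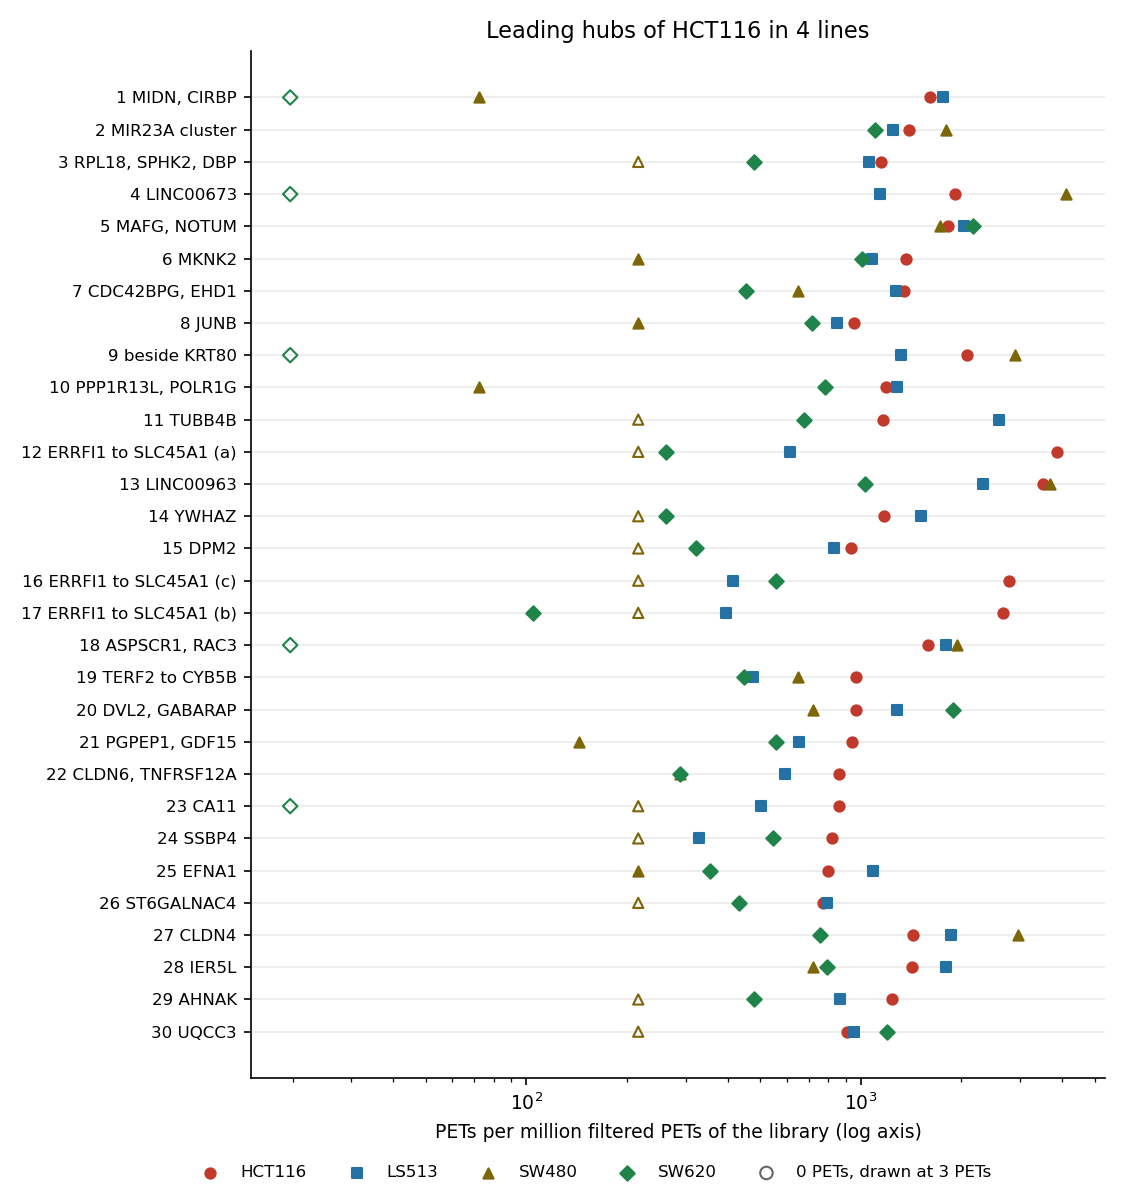
PETs per 1000000 filtered PETs (log axis) of the 30 HCT116 hubs in the 4 lines, 1 library each, with hubs in order of rank and open symbols for 0 PETs drawn at the rate of 3 PETs. Red and blue symbols lie close for most hubs, hubs 12, 16 and 17 have the red symbol far to the right, and 5 hubs have an open symbol for SW620.

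The exception was chromosome 1, between ERRFI1, a feedback inhibitor gene of the EGF receptor, and SLC45A1. RefSeq lists no protein-coding gene between these 2 and 5 long noncoding RNA genes. Hub 12, from 8128715 to 8159274, had 15 partners and 314 PETs, the highest sum of any HCT116 anchor. Its rate was 3849 for HCT116, 612 for LS513, 0 for SW480 and 262 for SW620. Hub 16, from 8253223 to 8282782, had 14 partners and rates of 2783, 414, 0 and 558. Hub 17, from 8224564 to 8236875, had 14 partners and rates of 2660, 396, 0 and 105. HCT116 was above every other line at all 3 hubs. The ratio to LS513 was 6.29 (5.12 to 7.74) for hub 12, 6.72 (5.25 to 8.66) for hub 16 and 6.71 (5.22 to 8.70) for hub 17. The ratio to SW620 was 14.7 (10.5 to 20.9), 4.99 (3.87 to 6.48) and 25.3 (15.2 to 45.1).

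These 3 hubs were joined to each other and to the anchors around them. Hub 12 held 50 PETs with hub 17 and 40 with hub 16, and hubs 16 and 17 shared 34. In LS513 these loops held 28, 19 and 16 PETs, in SW620 4, 5 and 4, and in SW480 0. The strongest loop of hub 12, of 79 PETs, led to 8099427 to 8124814, and held 19 PETs in LS513 and 0 in SW620. SW620 had no anchor over that partner in any table. The anchor at ERRFI1 itself, 8074485 to 8090069, had 57 PETs in all. It shared 23 with hub 12, at 61.7 kb, against 18 in LS513 and 6 in SW620.

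**Figure D3:**
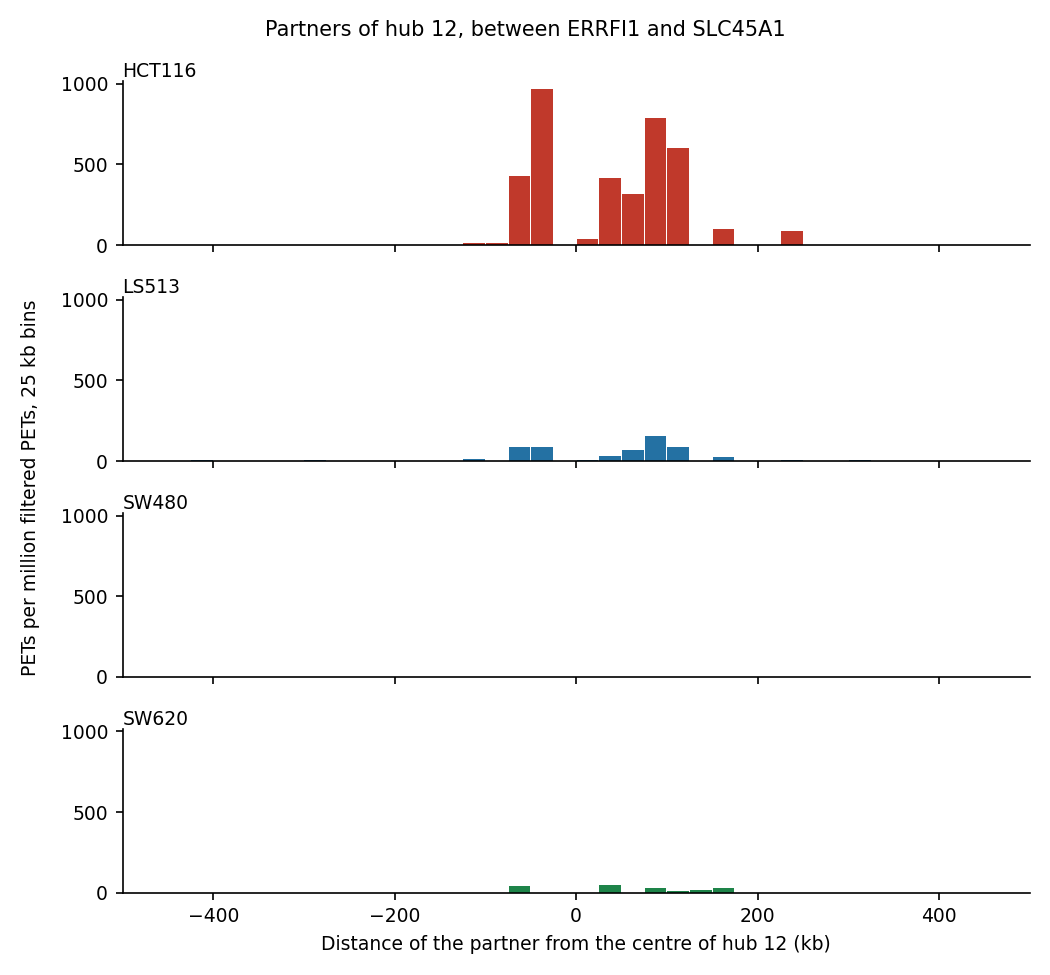
PETs per 1000000 filtered PETs joining hub 12 to partners in 25 kb bins of distance from its centre, 1 panel per line on the same axis. HCT116 has tall bars on both sides of the hub, LS513 has lower bars at the same distances, SW620 has small bars, and SW480 has none.

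The region around these hubs was summed after the data had been seen. From 8028715 to 8382782, a stretch of 354 kb reaching 100 kb past the hubs, HCT116 and LS513 had the same 18 anchors. Loops with both ends inside held 782 PETs in HCT116 and 307 in LS513, or rates of 9586 and 1382, a ratio of 6.94 (6.07 to 7.94). SW620 had 15 loop anchors covering 89.8 kb, against 208 kb in HCT116, and 156 PETs (rate 1023). In SW480 the loop tables had no anchor there, and 6 anchors stood in its other tables. Of the 18 HCT116 anchors, 17 were called higher than LS513 and 16 higher than both LS513 and SW620. Against the floor of SW480, 12 of the 18 were called higher, and all 12 were among those 16. The anchors outside the 16 were the anchor with 4 PETs at the lower edge and the one from 8315636 to 8321234 (19 PETs, ratio to SW620 1.61). Of the 4936 HCT116 anchors used as background below, 16.9% were called higher than LS513 and 31.9% higher than SW620. The region was drawn around hubs already seen to be higher in HCT116. A loop inside it counts at both of its anchors, so the 18 anchors share PETs and their calls are not independent. Other anchors there ranked 31, 39, 43 and 47 by partners. The anchor ranked 47, from 8192698 to 8201266, had 12 partners, 83 PETs and a ratio of 22.6 to LS513 (11.7 lower bound). In HCT116, 96.4% of the PETs of the region's anchors stayed inside it, against 84.1% in LS513 and 89.1% in SW620. All of chromosome 1 held 11.2% of the filtered PETs in HCT116 and 11.8% in LS513.

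**Figure D4:**
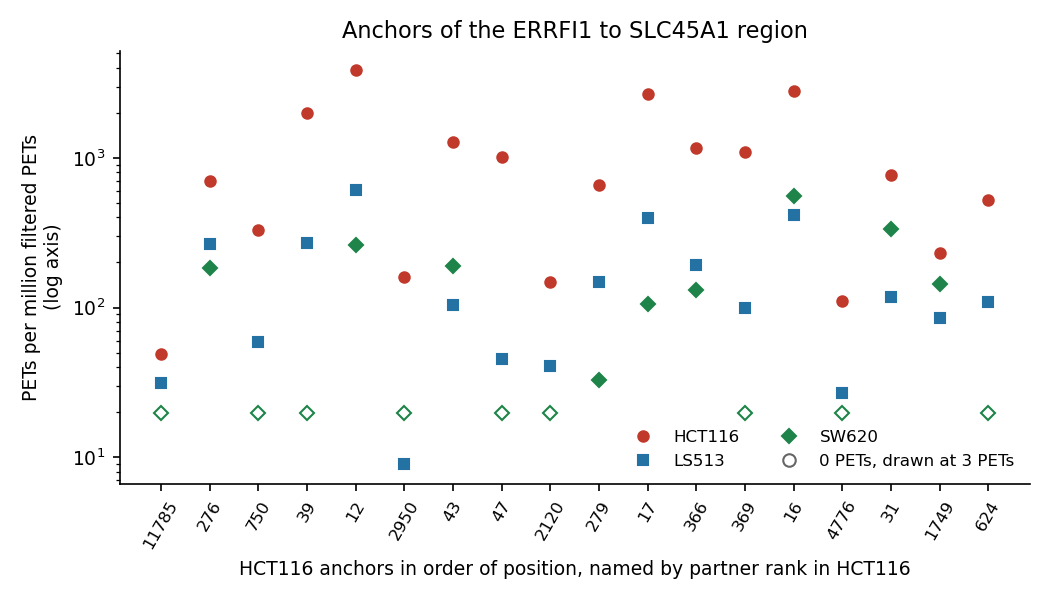
PETs per 1000000 filtered PETs (log axis) of the 18 HCT116 anchors from 8028715 to 8382782 on chromosome 1, in HCT116, LS513 and SW620. Anchors are in order of position and named by partner rank, with open symbols for 0 PETs drawn at the rate of 3 PETs. HCT116 is the highest of the 3 lines drawn at each of the 18 anchors, and SW620 is at 0 in 9 of them, where it had no anchor. A loop between these anchors counts at both, so the 18 share PETs.

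Over the 30 hubs, 5 were called higher in HCT116 than in LS513 and 1 lower. Among the 4936 HCT116 anchors with 10 or more PETs, 16.9% were called higher and 4.62% lower, so that the hubs' count is near the background. Of the 5, 4 kept the call in all 7 settings, hub 19 being the exception, and the 1 lower did not. The median ratio to LS513 was 1.12 for the hubs and 1.15 for the 4936 anchors. All 30 hubs were identical anchors in LS513. Without the 3 hubs of chromosome 1, a count made after seeing the data, 2 were called higher than LS513. Against the highest of the other 3 lines, 3 of the 30 were called higher, all in the chromosome 1 locus, against 8.27% of the 4936 anchors, and 0 were called lower than the lowest other line (background 0.243%).

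Against the highest other line, a line at 0 PETs counts as the lowest, although the floor of SW480 is 216. Against SW480, 20 hubs were called higher (background 8.04%) and 2 lower (background 8.04%). Of those 20, 8 kept the call in all 7 settings that used SW480, and of those 2, 0 did. The 12 hubs with 0 PETs in SW480 were bound to be called higher, since every hub had a rate of at least 772 against the floor of 216. Of the 4936 background anchors, 66.4% had 0 PETs in SW480. There an anchor with the background median of 17 PETs could not be called higher. The hub count and the 8.04% are thus not a like comparison. Per kb of anchor, the ratio to SW480 turned below 1 at hub 7 (0.685), hub 21 (0.643) and hub 22 (0.788), and hub 18 was called lower (0.361). Against SW620, 17 were called higher (background 31.9%) and 0 lower (background 8.57%). Of those 17, 12 kept the call in the same settings. The background anchors had a median of 17 PETs and the hubs 99, and the part of depth in these counts was not tested. Among the 170 other anchors with at least the 63 PETs of the weakest hub, a comparison chosen after seeing the data, 52.4% were called higher than SW480, 38.8% higher than SW620, 28.8% higher than LS513 and 14.1% higher than the highest other line. Of all HCT116 anchors, 17823 stood with the same ends in LS513, 1352 in SW620 and 208 in SW480, and the part of these anchor sets in the counts was not tested. SW480 had loop anchors at 18 of the 30 hubs and SW620 at 25. Among hubs with an anchor in the line compared, 8 of 18 were called higher than SW480 and 12 of 25 higher than SW620. The median ratio to SW480 was 3.89 over all 30, with counts of 0 set to the floor, and 1.73 over those 18, and to SW620 it was 2.33 over all 30 and 1.90 over those 25. Over the 4936 anchors, with counts of 0 set in the same way, these medians were 0.882 and 1.40. Over the 170 other anchors they were 2.61 and 1.59.

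The hubs absent from SW620 were 1, 4, 9, 18 and 23, and none of its tables had an anchor over them. The gap in its anchors was 62.0 kb at hub 1, 105 kb at hub 4, 146 kb at hub 9, 63.0 kb at hub 18 and 12.4 kb at hub 23. SW620 lacked an overlapping anchor at 15.9% of the HCT116 anchors of 20 kb or more, 12.97% of those of 10 to 20 kb and 34.2% of those under 5 kb. In SW480 the shares were 27.97%, 47.9% and 82.5%. Whether these places lack acetylation or only an anchor cannot be told apart from loop tables.

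PETs that join an anchor with itself, which the ranking did not use, were compared between lines after the data had been seen. They are given per 1000000 self PETs of the library. HCT116 was called higher than LS513 in self PETs at 5 hubs, 12, 16, 17, 19 and 23, and lower at 0. The background was 16.7% and 6.05% of 4593 anchors with 10 or more self PETs in both. Hub 12 had 958 self PETs per 1000000 in HCT116 and 271 in LS513 (ratio 3.53, lower bound 3.12), hub 16 had 720 and 194 (3.71, 3.21), and hub 17 had 688 and 156 (4.42, 3.78). At these 3 hubs the ratio was thus smaller for self PETs than for loops, and both were above 2. Hub 24 was called in loops alone, with a self ratio of 1.18, and hub 23 in self PETs alone, with 2.04. Hub 11 was lower in both, at 0.51 for self PETs, where the call was missed. The median self ratio to LS513 was 1.06 over the hubs and 1.11 over the 4593 anchors. Against SW480, self PETs were called higher at 16 hubs and lower at 4, hubs 9, 10, 18 and 20. Against SW620 they were called higher at 11 and lower at 0. No background was counted for these 2 lines. Hub 10, called higher than SW480 in loops (16.5, on 1 SW480 PET), was called lower in self PETs (0.393, 0.328 to 0.471). Hub 14, called higher than SW620 in loops (4.48), had a self ratio of 0.688. Within HCT116, self PETs made up 77.7% of all PETs at the hubs and 78.9% at all anchors. Interchromosomal PETs made up 2.17% to 7.27% of a hub's PETs, with the highest share at hub 29.

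**Figure D5:**
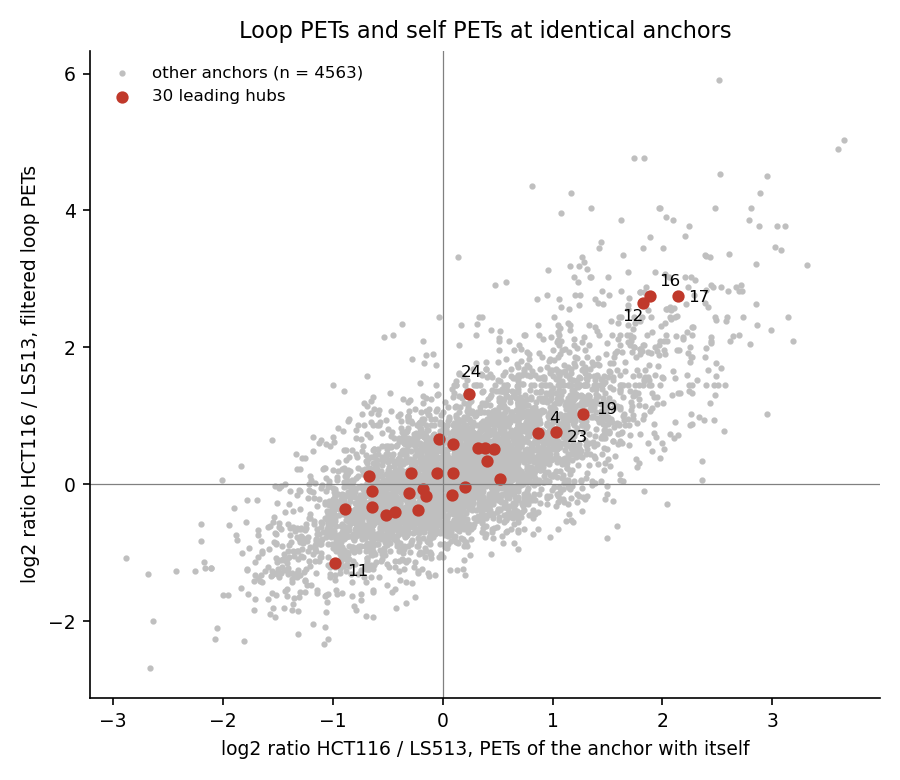
Log2 ratio of HCT116 to LS513 rates in filtered loop PETs against that in self PETs, at anchors identical in both lines, with the 30 hubs in red over the other anchors in grey. Hubs 12, 16 and 17 lie at the upper right, hub 11 at the lower left, and most other hubs lie within 2-fold either way, around the thin lines at 0.

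Single partners were mostly found again in LS513. Of the 454 hub loops with 2 or more PETs, 93.2% had an overlapping loop in LS513, 54.4% in SW620 and 10.4% in SW480. For all 13620 HCT116 loops with 2 or more PETs these shares were 87.4%, 58.0% and 10.5%. Among the 75 hub loops with 10 or more PETs, 100% were found in LS513, 53.3% in SW620 and 32.0% in SW480, against 99.8%, 68.9% and 31.4% of the 806 such loops in all. SW620 had no anchor over hubs 1, 4, 9, 18 and 23 in any table, so none of their loops could be found there. The other libraries differ in depth, with more filtered PETs in LS513 and SW620 than in HCT116 and fewer in SW480. The part of depth in these shares was not tested.

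At the 30 hubs the median number of partners with 2 or more PETs was 14.5 in HCT116, 23 in LS513, 11 in SW620 and 0 in SW480. Scaled down to the PETs of SW480 by the binomial expectation, the medians were 3.42 in HCT116, 2.70 in LS513, 1.02 in SW620 and 0 in SW480. Hub 12 had 15 partners in both HCT116 and LS513 as deposited, and an expected 8.57 and 1.82 at equal depth. Hub 1, by contrast, had 26 and 46 as deposited and 4.56 and 5.25 at equal depth. At equal depth the 3 of the 30 hubs with most partners in HCT116 were those of chromosome 1, with 8.57, 8.20 and 7.71, ahead of hub 13 with 6.65.

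The leading hubs of the other lines, ranked in the same way, overlapped those of HCT116 in part. Of the 30 HCT116 hubs, 13 were among the leading 30 of LS513, 5 among those of SW620 and 2 among those of SW480. Those shared with SW480 were the hub beside KRT80 and the LINC00963 hub. At the leading 30 of LS513 the median ratio of HCT116 to LS513 was 0.849. At those of SW480 and SW620 the median ratio of HCT116 to the line was 0.0901 and 0.691. The choice of a list by 1 line's PETs raises that line in its own list, so the ratios at the HCT116 hubs and these are read side by side.

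Ranking by summed PETs in place of partners kept 12 of the 30 hubs and brought in others. This ranking chose anchors by the HCT116 PETs that a call then compares, which favours HCT116. Over the 4936 anchors with 10 or more PETs, 8.27% were called higher than the highest other line. Over the 170 anchors with 63 or more PETs that were not hubs, 14.1% were. Of the 30 anchors with most PETs, 7 were called higher than the highest other line, against 3 of the hubs. They included 8099427 to 8124814 on chromosome 1 (rate 1998, ratio to LS513 7.40) and a pair of anchors on chromosome 8, from 128215200 to 128241150 and from 128250011 to 128291317, in the stretch upstream of MYC, a growth-promoting transcription factor gene. The first had a rate of 1826 for HCT116 against 293 for LS513, and the second 1446 against 302, with 0 in SW480 and SW620. Neither SW480 nor SW620 had an anchor over this pair, or over 8099427 to 8124814, in any table. Whether these places lack loops there or only an anchor cannot be told apart. The pair on chromosome 8 had 12 and 10 partners. Another lay on chromosome 22 from 37707966 to 37753536, with 7 partners and a rate of 1459 against 531 in SW620, the highest other line.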

How the data were processed

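Per the labels' protocols, formaldehyde-fixed chromatin was digested by MboI, its ends were biotinylated and joined, and acetylated fragments were pulled down before Tn5 library preparation. Per the submitters' processing notes HiC-Pro and hg19 (GRCh37) were used. For the loop caller and the origin of the anchors: not given in the sources used here. Whole-number counts of PETs per anchor pair were deposited by the authors in 4 tables per library. The deposited mango table adds a number from 0 to 1 per loop, without a header, read here as an FDR-adjusted p-value. Chromosomes 1 to 22 and X were used.

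Each loop touching an anchor was counted once. Where a line had several anchors over a hub, loops joining them to each other were counted for that line. The same contacts in HCT116 are PETs of the hub with itself and were not counted. An anchor of another line overlapped a hub from 1 bp, and starts are printed 1-based. With 1 library per line no test was made. The members, lists and alternatives were chosen with earlier results of these data known. All 30 hubs are accounted for, and those described most fully are the 12 highest ranked, the 5 with the highest lower bound against the highest other line and the 5 with the lowest upper bound against the lowest. Hub gene names come from general knowledge of hg19 and not, as planned, from files or reference tables. The promoters and motifs shown were chosen after scanning 21 genes for 8 motifs. The comparison of self PETs between lines, the sum over the chromosome 1 region and the 3 alternatives named as such in the text were added after seeing the data. The planned gene lists, cell type markers and GC content need a hg19 annotation or genome and were not run. The ratio and its calls were tested on simulated data. Scripts ran in Python 3.11.15 (scipy 1.17.1, pandas 2.3.3, numpy 2.4.6), and plots came from matplotlib 3.10.9.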

Additional observations from a re-analysis of the deposited data

How the results depend on the processing

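The 3 hubs of the chromosome 1 locus kept a ratio of at least 2 to the highest other line in 8 of 8 settings, with ranges of 6.21 to 11.3 for hub 12, 3.92 to 15.4 for hub 16 and 6.39 to 17.8 for hub 17. Hub 4 had a ratio of 0.466 to the highest other line, which turned to 1.505 when rates were scaled to anchors overlapping in all 4 libraries and to 1.67 without SW480. The causes of the changes below were not tested. Using only loops with 2 or more PETs, 0 hubs were lower than LS513. Using only loops with FDR under 0.01, 9 hubs were higher than LS513, 0 were lower than SW480 and 2 lower than SW620, the median ratio was 2.46 to SW480 and 3.65 to SW620, and 35.7% of hub loops were found in SW620. Scaled by chromosome, 0 were lower than LS513 and 10 higher than SW480, with a median ratio of 1.501 to SW480. Scaled to anchors overlapping in all 4 libraries, 0 were lower than SW480 and the median ratio to it was 12.6. With loops spanning 20 kb or more 0 were lower than SW480, and with PETs per kb of anchor 5 were, with a median ratio of 2.09. When an overlap had to cover at least 0.5 of the anchor, 6.17% of hub loops were found in SW480.

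The choice of hubs mattered more widely. Ranked by summed PETs, 12 of the 30 hubs remained and 3 lay on chromosome 19 in place of 9. Then 12 were higher and 0 lower than LS513, 12 higher and 5 lower than SW480 (median ratio 1.63), and 7 higher than the highest other line. That ranking used the same HCT116 PETs that the calls compare. Counting partners with 1 or more PETs, 19 remained, 2 were higher and 0 lower than LS513, 11 higher than SW620 and 0 higher than the highest other line. Counting partners with 3 or more PETs, 18 remained, 5 lay on chromosome 19, 4 were lower than SW480 and 6 higher than the highest other line. With partners merged within 5 kb, 2 were higher than LS513 and 1 higher than the highest other line. The partners summed over the hubs, as a ratio to HCT116, were 1.54 in LS513, 0.0667 in SW480 and 0.746 in SW620, and 0.759, 0.270 and 0.357 once thinned to the shallowest library. Of the leading 50 hubs 26% were among those of SW620, and of the leading 100, 28% were, with 12% among those of SW480. In alternatives chosen after seeing the data, 8 hubs were higher than SW480 among those with an overlapping anchor there (median ratio 1.73), and without the chromosome 1 locus 2 were higher than LS513 and 0 higher than the highest other line. The depth of SW480, 13885 filtered PETs, limits what can be seen there. No paired analysis was possible because each line had 1 library.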
